A study of Mus musculus with 35 samples.

Results

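The genes described here make cholesterol and fatty acids in the liver, and were followed in mice given silica particles. They form a list of 36 genes: 18 enzymes of the sterol pathway, 6 regulators and 12 genes of fatty acid and triglyceride synthesis. Genes were matched by the symbol in the platform's annotation, and each was represented by the probe set of 1 gene with the highest mean signal. Of the 36 genes, 35 had such a probe set and Acat2 was not analysed here, which left 17 sterol enzymes. All 35 passed the filter on low signals, among 12669 genes tested in all. RNA came from 1 liver lobe, the left lateral, of BALB/c mice killed 6 h after an intravenous injection, with 1 array per mouse. There were 7 groups of 5 mice, to which the mice had been assigned at random. Control mice received deionized water, the vehicle. The other groups received silica particles of 3 sizes, named SP30, SP70 and SP300 in increasing order. SP30 was injected at 10 mg/kg, while SP70 was given in 3 doses (10, 20 and 40 mg/kg). SP300 was given in a low dose of 10 and a high dose of 200 mg/kg. One question was the dose response of SP70, and the other was the effect of size, both at the common dose of 10 mg/kg and at the dose of each particle that the study's design text calls toxic (10 mg/kg for SP30, 40 for SP70, 200 for SP300). The labels name no genetic change in any group and do not state the age of the mice.

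Cholesterol is built from acetyl-CoA through mevalonate, isoprenoid units, squalene and lanosterol, and fatty acids are built from acetyl-CoA through malonyl-CoA. Both sets of enzymes are under sterol regulatory element binding proteins, which are held in the endoplasmic reticulum by Insig proteins and carried to the Golgi by Scap when membrane sterol is low. In liver, SREBP-2, the product of Srebf2, mainly drives the sterol enzymes, and SREBP-1c, a product of Srebf1, mainly drives the fatty acid genes and responds to insulin. The groups were therefore set side by side as sterol enzymes and fatty acid genes.

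Signals are the deposited intensities on a linear scale, listed in the order of mouse 1 to mouse 5 of a group. Levels of different genes on an array cannot be compared, so each gene is compared only with itself. Differences are on the log2 scale, of the signal plus a pseudocount of 12.5, and are followed by limma's standard error, for 5 mice in each group. The spread in it is pooled over all 35 arrays, so a gene has the same standard error in each comparison. A gene is said to have risen or fallen only where its Benjamini-Hochberg adjusted p, over all 12669 genes of that comparison, was below 0.05. Counts at an unadjusted p below 0.05 are given as a description. The share of all genes at that threshold was not counted, so these counts cannot be set against it. The 6 comparisons with control share the same 5 control mice and are therefore not independent of one another. Array medians ran from 149 to 180, and arrays of a group correlated at 0.962 to 0.976 across probe sets. In bulk liver, fewer cells of a type and less RNA per cell cannot be told apart.

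Nearly all of the members that passed the test were lower than in control mice, and the 3 that rose (Mvd, Lss and Srebf2) did so after SP70 at 20 mg/kg. After SP30, 25 of the 35 genes fell and 0 rose, while of all genes tested 49.3% were called, 31.3% lower and 18.1% higher. After SP70 at 10 mg/kg 5 fell and 0 rose, against 18.2% of all genes called, 5.70% lower and 12.5% higher. At 20 mg/kg 11 fell and 3 rose, against 39.8% called, 20.9% lower and 18.8% higher. At 40 mg/kg 16 fell and 0 rose, against 44.4% called, 28.8% lower and 15.6% higher. After SP300 at 200 mg/kg 14 fell and 0 rose, against 30.7% called, 18.0% lower and 12.6% higher. After SP300 at 10 mg/kg limma called 0 of the 35, against 1.17% of all genes (0.245% lower and 0.924% higher), and 6 of the 35 had an unadjusted p below 0.05. The median log2 difference of the 35 genes from control was -0.94 after SP30, -0.35, -0.37 and -0.66 after SP70 at 10, 20 and 40 mg/kg, -0.57 after SP300 at 200 mg/kg and -0.25 after SP300 at 10 mg/kg. The medians over all genes tested lay between -0.12 and 0.06. The share of all calls that were higher moved with the scaling of the arrays. It was 68.6% for SP70 at 10 mg/kg, 47.3% at 20 mg/kg, 79.1% for SP300 at 10 mg/kg and 41.1% at 200 mg/kg, against 51.1% and 53.1% after quantile normalization for the lowest doses of SP70 and SP300, and 36.3%, 65.5% and 53.6% with the arrays centred for the middle dose of SP70 and for the low and the high dose of SP300. The count at 10 mg/kg of SP70 rested on single mice. It was 1 without control mouse 3 or SP70 mouse 1, 2 without control mouse 2 or SP70 mouse 2 or 4, 3 without control mouse 1 or 4, and 8 without control mouse 5. The count after SP300 at 10 mg/kg was 1 without control mouse 5, and that at 200 mg/kg was 9 without SP300 mouse 2 and 21 without control mouse 5.

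**Figure D1:**
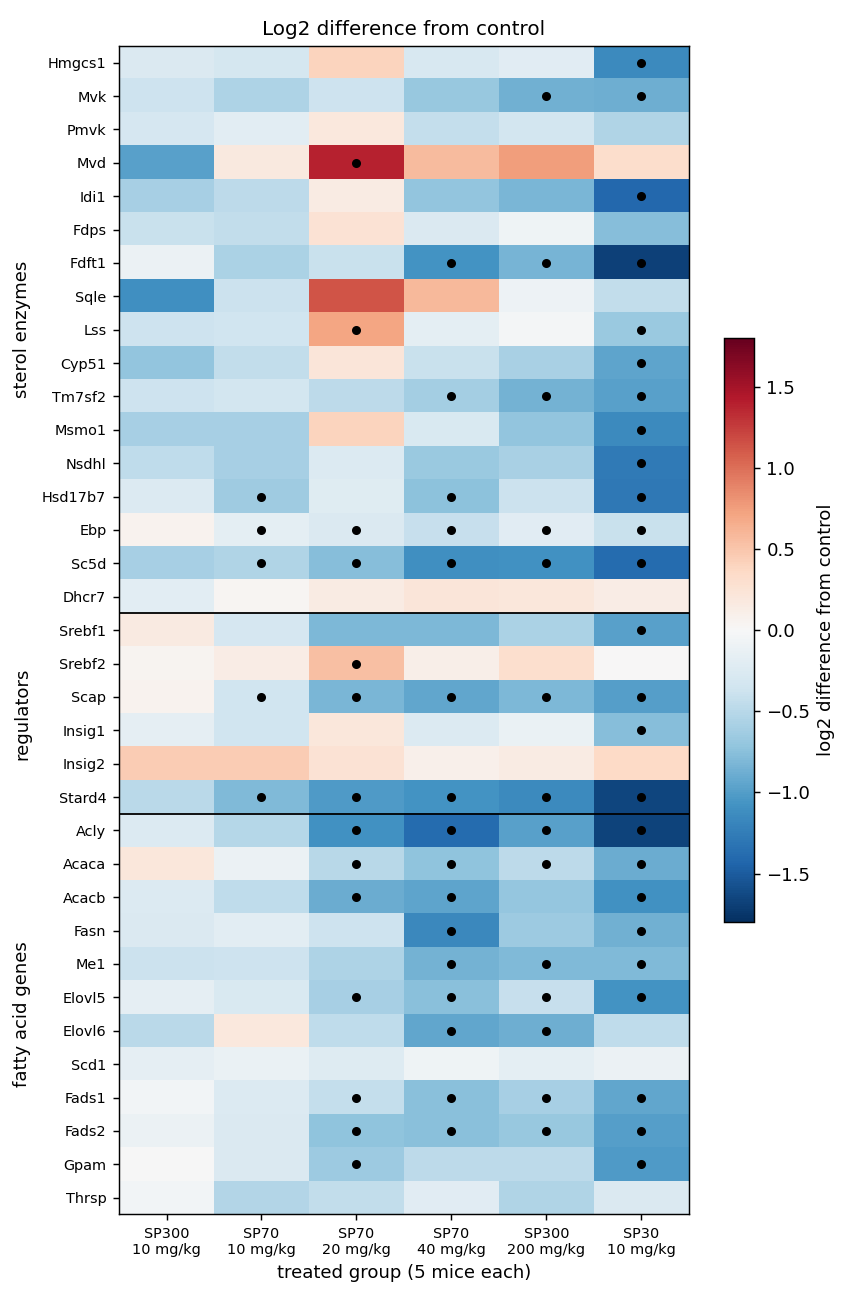
Log2 difference from control of each of the 35 genes (rows) in the 6 treated groups (columns, 5 mice each), in blue where lower and in red where higher. A black dot marks an adjusted p below 0.05: 25 genes carry one after SP30 and 0 after SP300 at 10 mg/kg.

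The difference between the branches was greatest after SP70 at 20 mg/kg. There, 2 of 17 sterol enzymes rose and 2 fell with a list median of 0.15, while 7 of 12 fatty acid genes fell, 0 rose and the median was -0.53. Of all genes tested there, 18.8% were higher and 20.9% lower. The sterol enzymes did not move as one. Mvk, Fdft1, Tm7sf2, Nsdhl, Hsd17b7, Ebp and Sc5d had differences below 0, and the others above 0. Subtracting the fatty acid median from the sterol median within each mouse gave 0.80, 0.85, 0.22, 0.83 and 0.72 in these 5 mice, a mean of 0.68 ± 0.26 (SD, n = 5). Every one of the 5 was above 0, and 4 of the 5 were above the highest control mouse. In control mice the same measure was -0.01, 0.51, -0.26, 0.30 and -0.47, with a mean of 0.01 ± 0.40. It was 0.31 ± 0.34 after SP70 at 40 mg/kg, 0.23 ± 0.26 after SP300 at 200 mg/kg, -0.05 ± 0.25 after SP30, -0.17 ± 0.13 after SP70 at 10 mg/kg and -0.32 ± 0.33 after SP300 at 10 mg/kg. These ranges overlap those of the control mice. At SP30 both branches were low to a like extent, with sterol medians per mouse from -1.13 to -0.70 and fatty acid medians from -1.08 to -0.80. The measure is a description of the listed genes and was not tested.

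**Figure D2:**
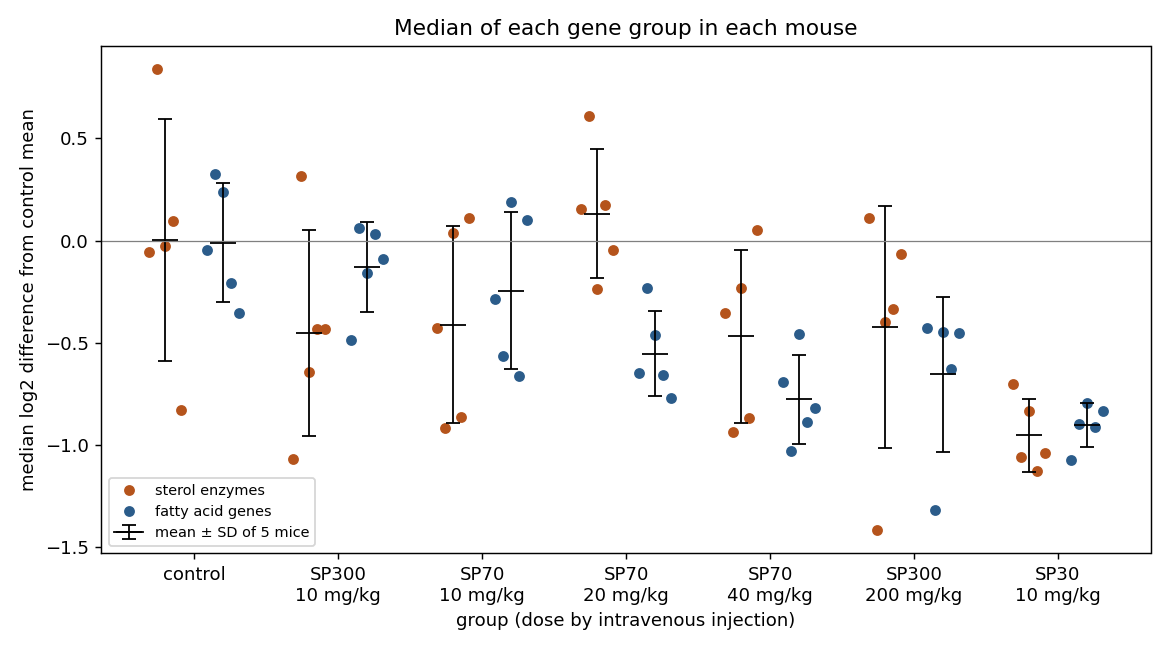
Median log2 difference from the control mean over the 17 sterol enzymes (brown-orange) and the 12 fatty acid genes (blue) in each mouse, by group, with the mean and SD of 5 mice. After SP70 at 20 mg/kg the sterol medians average 0.13 and the fatty acid medians -0.55; after SP30 they average -0.95 and -0.90.

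Short letter runs before the members' start sites are given as a description of the sequences, and no relation between them and the signals was tested. RefSeq promoters of build GRCm38.p6 were searched on both strands over the 250 bases before each start, and 30 of the 36 genes had an entry, with 40 promoters, among them Acat2, whose signal was not analysed. Fdps, Fdft1, Sqle, Stard4, Scd1 and Fads1 had none. CCAAT, read as ATTGG on the other strand, is the NF-Y box and lay in 14 of 18 promoters of sterol enzymes and 6 of 12 of fatty acid genes, against 35.4% of 21263 promoters of coding genes and 33.8% of all 32851. GGGCGG, read as CCGCCC on the other strand, is the Sp1 box and lay in 15 of 18 and 4 of 12, against 42.6% of the promoters of coding genes and 32.7% of all. TCACNCCAC, the letters of a sterol regulatory element, was found in Hmgcs1 alone among the members and in 1.05% of all promoters. TCACNTGA, an E-box-like element, was found in Thrsp and Insig2 and in 3.45% of all promoters. The 150 bases before the start are given for Hmgcs1 and for the 5 sterol enzymes with an entry whose signals are described mouse by mouse, with the letters above in capitals:
Hmgcs1: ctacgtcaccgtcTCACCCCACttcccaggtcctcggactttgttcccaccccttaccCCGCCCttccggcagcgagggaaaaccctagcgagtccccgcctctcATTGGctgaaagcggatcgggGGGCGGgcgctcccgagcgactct
Mvd: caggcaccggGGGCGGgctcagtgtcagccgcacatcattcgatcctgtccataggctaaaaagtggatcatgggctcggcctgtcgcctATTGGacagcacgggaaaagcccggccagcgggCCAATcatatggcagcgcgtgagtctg
Idi1: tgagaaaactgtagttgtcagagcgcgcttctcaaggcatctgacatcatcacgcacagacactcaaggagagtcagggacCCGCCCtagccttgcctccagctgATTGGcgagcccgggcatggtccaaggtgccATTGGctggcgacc
Nsdhl: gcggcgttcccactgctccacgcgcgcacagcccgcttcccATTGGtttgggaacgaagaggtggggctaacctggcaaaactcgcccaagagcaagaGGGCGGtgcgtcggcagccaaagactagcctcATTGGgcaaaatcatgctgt
Hsd17b7: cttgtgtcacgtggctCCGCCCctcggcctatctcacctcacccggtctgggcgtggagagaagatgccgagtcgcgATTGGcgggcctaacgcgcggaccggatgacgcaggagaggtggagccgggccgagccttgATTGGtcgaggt
Sc5d: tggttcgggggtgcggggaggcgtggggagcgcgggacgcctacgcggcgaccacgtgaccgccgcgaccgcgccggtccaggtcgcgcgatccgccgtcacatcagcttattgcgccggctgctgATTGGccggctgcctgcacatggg

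Those of Hmgcs1 (chr13:119690201-119690350), Idi1 (chr13:8885456-8885605) and Nsdhl (chrX:72918371-72918520) lie on the plus strand, and those of Mvd (chr8:122443423-122443572), Hsd17b7 (chr1:169969206-169969355) and Sc5d (chr9:42264301-42264450) on the minus strand. All 6 hold at least 1 CCAAT box within these 150 bases. The first capitals of Hmgcs1 are the letters of the sterol regulatory element. For comparison, the same stretch of 3 fatty acid genes read:
Acly: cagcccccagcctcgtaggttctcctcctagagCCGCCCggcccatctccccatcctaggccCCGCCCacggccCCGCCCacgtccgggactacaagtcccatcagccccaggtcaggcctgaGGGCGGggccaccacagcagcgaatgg
Fasn: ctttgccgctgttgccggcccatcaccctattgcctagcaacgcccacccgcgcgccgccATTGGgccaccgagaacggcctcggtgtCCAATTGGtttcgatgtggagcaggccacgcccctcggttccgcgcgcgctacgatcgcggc
Elovl5: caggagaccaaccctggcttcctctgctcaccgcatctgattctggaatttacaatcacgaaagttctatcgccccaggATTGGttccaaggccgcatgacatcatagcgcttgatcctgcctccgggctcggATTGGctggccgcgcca

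The stretches of Acly (chr11:100528001-100528150) and Fasn (chr11:120824548-120824697) lie on the minus strand, and that of Elovl5 (chr9:77917215-77917364) on the plus strand. Acly showed Sp1 box letters and no CCAAT in this window, and Fasn and Elovl5 showed CCAAT boxes and no GGGCGG. The longer run of capitals in Fasn is a CCAAT and an ATTGG that overlap. A match of letters is a description of the sequence, and binding was not measured.

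Among the sterol enzymes, the first steps carry acetyl-CoA units to isopentenyl diphosphate. Hmgcs1, which makes HMG-CoA, averaged 24371 ± 11856 (SD, n = 5) in control mice and 10164 ± 2242 after SP30, and it fell there (-1.15 ± 0.35, adjusted p = 0.00649). Its next probe set fell too (-1.15, adjusted p = 0.00428), but with all its probe sets averaged the call was lost (-0.73, adjusted p = 0.078). Mvk, mevalonate kinase, fell after SP30 (-0.89 ± 0.31, adjusted p = 0.0184) and after SP300 at 200 mg/kg (-0.87 ± 0.31, adjusted p = 0.0321). In the latter, SP300 mouse 3 had a signal of 109, below the filter of 165, and without it the difference was -0.38 (adjusted p = 0.207). Pmvk, phosphomevalonate kinase, passed the threshold in no comparison with control. Mvd, mevalonate diphosphate decarboxylase, was the sterol enzyme with the highest rise. Mvd signals were 623, 1679.5, 709.9, 488 and 197 in control mice and 266, 742, 161, 338 and 200.4 after SP300 at 10 mg/kg. After SP70, the Mvd signals were 778, 661, 928, 365 and 779.9 at 10 mg/kg, 1189, 2167, 1298, 1607 and 1798 at 20 mg/kg and 1390.3, 401, 1057, 714 and 1308 at 40 mg/kg. For Mvd they were 1205, 676, 770.4, 1027 and 1631 after SP300 at 200 mg/kg and 643, 864, 857, 655 and 728 after SP30. At 20 mg/kg of SP70 all 5 mice were above 4 of the 5 control mice, and control mouse 2 lay within their range. Mvd rose there by 2.62-fold (log2 1.39 ± 0.38, adjusted p = 0.00348), and it did not pass against control in the other 5 groups. One Mvd signal, of 161 after SP300 at 10 mg/kg, was below the filter. A dimmer Mvd probe set rose at 20 mg/kg of SP70 too, by 0.96 (adjusted p = 0.00271).

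Idi1 interconverts isopentenyl and dimethylallyl diphosphate. Idi1 signals were 7745, 14924, 7975, 9589 and 4431 in control mice and 3233, 11883, 3639.6, 5649 and 6137 after SP300 at 10 mg/kg. After SP70, the Idi1 signals were 5890.3, 3388, 9164, 4263 and 9615 at 10 mg/kg, 10308, 12370.3, 4927, 11910.2 and 8531 at 20 mg/kg and 6061, 2878, 7655, 3129.9 and 7808 at 40 mg/kg. For Idi1 they were 10242, 1526, 5331, 5064 and 5378 after SP300 at 200 mg/kg and 4444, 2998, 3227, 2630.3 and 2562 after SP30. Of the SP30 mice, 4 were below all control mice and mouse 1 was just above the lowest control mouse. Idi1 fell 2.66-fold after SP30 (-1.41 ± 0.39, adjusted p = 0.00291), and did not pass at 20 mg/kg of SP70 (0.14 ± 0.39, adjusted p = 0.811).

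Fdps, which makes farnesyl diphosphate, passed the threshold in no comparison with control. Fdft1, squalene synthase, commits farnesyl diphosphate to sterols. Fdft1 signals were 10696, 16473, 10239.97, 10220.3 and 5671 in control mice and 7306, 13991, 11056, 8351 and 7816 after SP300 at 10 mg/kg. After SP70, the Fdft1 signals were 7251, 5472, 8455, 5544 and 7758 at 10 mg/kg, 6599, 9855, 6382, 8343 and 7577 at 20 mg/kg and 6014, 3119.6, 6015, 3774 and 5909 at 40 mg/kg. For Fdft1 they were 9176, 3499, 4887, 5432 and 6774 after SP300 at 200 mg/kg and 3416, 3532, 2847, 3318 and 2674 after SP30. Every SP30 mouse was below every control mouse, and at 40 mg/kg of SP70 the groups overlapped only through control mouse 5. Fdft1 fell 3.21-fold after SP30 (-1.68 ± 0.23, adjusted p = 1.79e-07). It fell after SP70 at 40 mg/kg (-1.07 ± 0.23, adjusted p = 2.23e-04) and after SP300 at 200 mg/kg (-0.83 ± 0.23, adjusted p = 0.00519). Its probe set carries the manufacturer's suffix for probes that may bind other transcripts, and the next probe set of Fdft1 fell by 1.72 after SP30 (adjusted p = 3.51e-06).

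Sqle, squalene epoxidase, averaged 2149.9 ± 1463 in control mice and 4287 ± 1343 after SP70 at 20 mg/kg, and the difference did not pass (1.13 ± 0.49, adjusted p = 0.0644). Lss, lanosterol synthase, had signals of 1485, 3721, 1636, 1620.4 and 928 in control mice, 1941, 4039, 2260.3, 3148 and 2892 after SP70 at 20 mg/kg and 1033, 1092, 1193, 980.3 and 983 after SP30. At 20 mg/kg, all mice were above 4 of the 5 control mice, and after SP30 all were below 4 of the 5. Lss rose in the first (0.71 ± 0.26, adjusted p = 0.029) and fell in the second (-0.67 ± 0.26, adjusted p = 0.0322). A dimmer Lss probe set rose in the first too (0.70, adjusted p = 0.0231) but did not pass in the second (-0.32, adjusted p = 0.315). The fall did not pass after quantile normalization (adjusted p = 0.052), nor the rise with only the 2 groups fitted (adjusted p = 0.069). The rise of Lss no longer passed when SP70 mouse 2, 4 or 5 or control mouse 1, 3, 4 or 5 was left out, with an adjusted p of up to 0.134.

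The later enzymes turn lanosterol into cholesterol. Cyp51, the lanosterol demethylase, fell after SP30 (-0.95 ± 0.32, adjusted p = 0.015), and so did Msmo1, a sterol methyl oxidase (-1.14 ± 0.42, adjusted p = 0.0218). The call of Msmo1 was lost with its probe sets averaged (-0.31, adjusted p = 0.611), and its second probe set, with a mean signal of 148, differed the other way without passing (0.52, adjusted p = 0.481). That dim probe set rose after SP70 at 20 mg/kg (1.68, adjusted p = 0.0152), where the one used did not pass (0.40 ± 0.42, adjusted p = 0.483). Tm7sf2, a sterol reductase, fell after SP70 at 40 mg/kg (-0.61), SP300 at 200 mg/kg (-0.85) and SP30 (-0.97), with adjusted p values of 0.0395, 0.00712 and 0.00112. Nsdhl removes the methyl groups of carbon 4 together with Msmo1. Nsdhl signals were 4211, 7148, 4600.3, 6548 and 2648 in control mice and 1817, 6398, 2392, 3451 and 5198 after SP300 at 10 mg/kg. After SP70, the Nsdhl signals were 2902, 2032, 5552, 1872 and 4906 at 10 mg/kg, 4527, 4688, 3218, 4363 and 3419 at 20 mg/kg and 3079, 2679, 3971, 2021 and 3607 at 40 mg/kg. For Nsdhl they were 4438, 1503, 4276, 3104 and 3637 after SP300 at 200 mg/kg and 1755, 2262, 2132, 1797 and 1872 after SP30. All SP30 mice were below all control mice, and in each of the other groups some mice overlapped. Nsdhl fell 2.42-fold after SP30 (-1.27 ± 0.31, adjusted p = 8.51e-04).

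Hsd17b7 is the reductase of the same demethylation. Hsd17b7 signals were 3393, 5991, 3785, 3303 and 2159 in control mice and 2277, 4164, 2870.1, 3294 and 2655 after SP300 at 10 mg/kg. After SP70, the Hsd17b7 signals were 2209.9, 1826, 2914, 1789 and 2747 at 10 mg/kg, 2668, 3538, 2531, 3479 and 3048 at 20 mg/kg and 2596, 1443, 2377, 1705 and 2776 at 40 mg/kg. For Hsd17b7 they were 4041, 1715, 2368, 2792 and 3047 after SP300 at 200 mg/kg and 1946, 1345, 1566, 1315 and 1141 after SP30. All SP30 mice lay below all control mice. Hsd17b7 fell after SP30 (-1.29 ± 0.22, adjusted p = 7.96e-06), after SP70 at 40 mg/kg (-0.74 ± 0.22, adjusted p = 0.00615) and after SP70 at 10 mg/kg (-0.65 ± 0.22, adjusted p = 0.0354), and did not pass at 20 mg/kg (-0.22 ± 0.22, adjusted p = 0.457).

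Ebp and Sc5d, which isomerize and desaturate the sterol ring, were the 2 sterol enzymes that fell in all treated groups other than SP300 at 10 mg/kg. Sc5d signals were 15239, 24899, 16336, 13872 and 10035 in control mice and 7316, 13171, 9858, 11378 and 10184 after SP300 at 10 mg/kg. After SP70, the Sc5d signals were 11033, 8134, 14038, 7404 and 14084 at 10 mg/kg, 8923, 11433, 8212, 9128 and 7788 at 20 mg/kg and 8079, 5679, 9032, 5954 and 7643 at 40 mg/kg. For Sc5d they were 8214, 4738, 8384, 6783 and 9018 after SP300 at 200 mg/kg and 5971, 6250.2, 6425, 5221 and 5611 after SP30. All mice given SP30, SP70 at 40 mg/kg or SP300 at 200 mg/kg were below all control mice. Sc5d fell by 2.61-fold after SP30 (-1.39 ± 0.20, adjusted p = 3.19e-07). Its log2 difference was -0.54, -0.77 and -1.10 after SP70 at 10, 20 and 40 mg/kg and -1.09 after SP300 at 200 mg/kg, with adjusted p values of 0.0487, 0.00168, 1.76e-05 and 4.81e-05. The call at 10 mg/kg of SP70 was lost with the replicate block (adjusted p = 0.055), without a filter (0.067), without a variance trend (0.069) and with only the 2 groups fitted (0.136). A dimmer Sc5d probe set fell after SP300 at 10 mg/kg as well (log2 -0.996, adjusted p = 0.0118), where the one used did not pass (-0.59 ± 0.20, adjusted p = 0.134). That dimmer probe set fell in every treated group, among them SP70 at 10 mg/kg (-1.09, adjusted p = 3.18e-04) and SP30 (-2.18, adjusted p = 2.59e-10). Ebp had the smallest difference of the members called in each of these 5 groups, and an SD within groups of 0.08 on the log2 scale, where 0.474% of all genes had a smaller one. It averaged 24919.7 ± 1866 in control mice and 18611 ± 397 after SP70 at 40 mg/kg, where no mice overlapped (-0.42 ± 0.06, adjusted p = 3.16e-07). With the arrays centred on their medians, the call of Ebp after SP300 at 200 mg/kg was lost (adjusted p = 0.096). Dhcr7, which makes cholesterol in the last step, passed in no comparison with control, and its differences ran from -0.19 to 0.22.

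Counted over the list, sterol enzymes fell in 12 of 17 cases after SP30 (median -0.95), 5 after SP70 at 40 mg/kg (-0.42), 5 after SP300 at 200 mg/kg (-0.39) and 3 after SP70 at 10 mg/kg (-0.44). Of all genes tested, 31.3%, 28.8%, 18.0% and 5.70% were lower in these groups, in that order. The count after SP70 at 40 mg/kg was thus near the share of all genes. After SP300 at 10 mg/kg limma called 0 sterol enzymes (median -0.38), against 1.17% of all genes. There, 4 sterol enzymes had an unadjusted p below 0.05. Without control mouse 2, Mvk, Lss, Cyp51 and Msmo1 no longer passed after SP30, with adjusted p values of 0.056, 0.191, 0.052 and 0.086. At least 1 other mouse also ended the call of Mvk (control 4), Lss (SP30 1, 4 or 5) and Msmo1 (control 3 or SP30 4). Leaving out SP70 mouse 1, 2, 4 or 5 or control mouse 1, 2 or 4 ended the call of Tm7sf2 at 40 mg/kg of SP70 (adjusted p of up to 0.105), and so did quantile normalization (0.161). Without a filter or without a variance trend that call was lost too. After SP300 at 200 mg/kg, Mvk was lost without SP300 mouse 2 or 3 or control mouse 2, 3 or 4 (up to 0.207), and Tm7sf2 without SP300 mouse 2 (0.052). With only the 2 groups fitted, Mvk was lost there too (0.177).

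**Figure D3:**
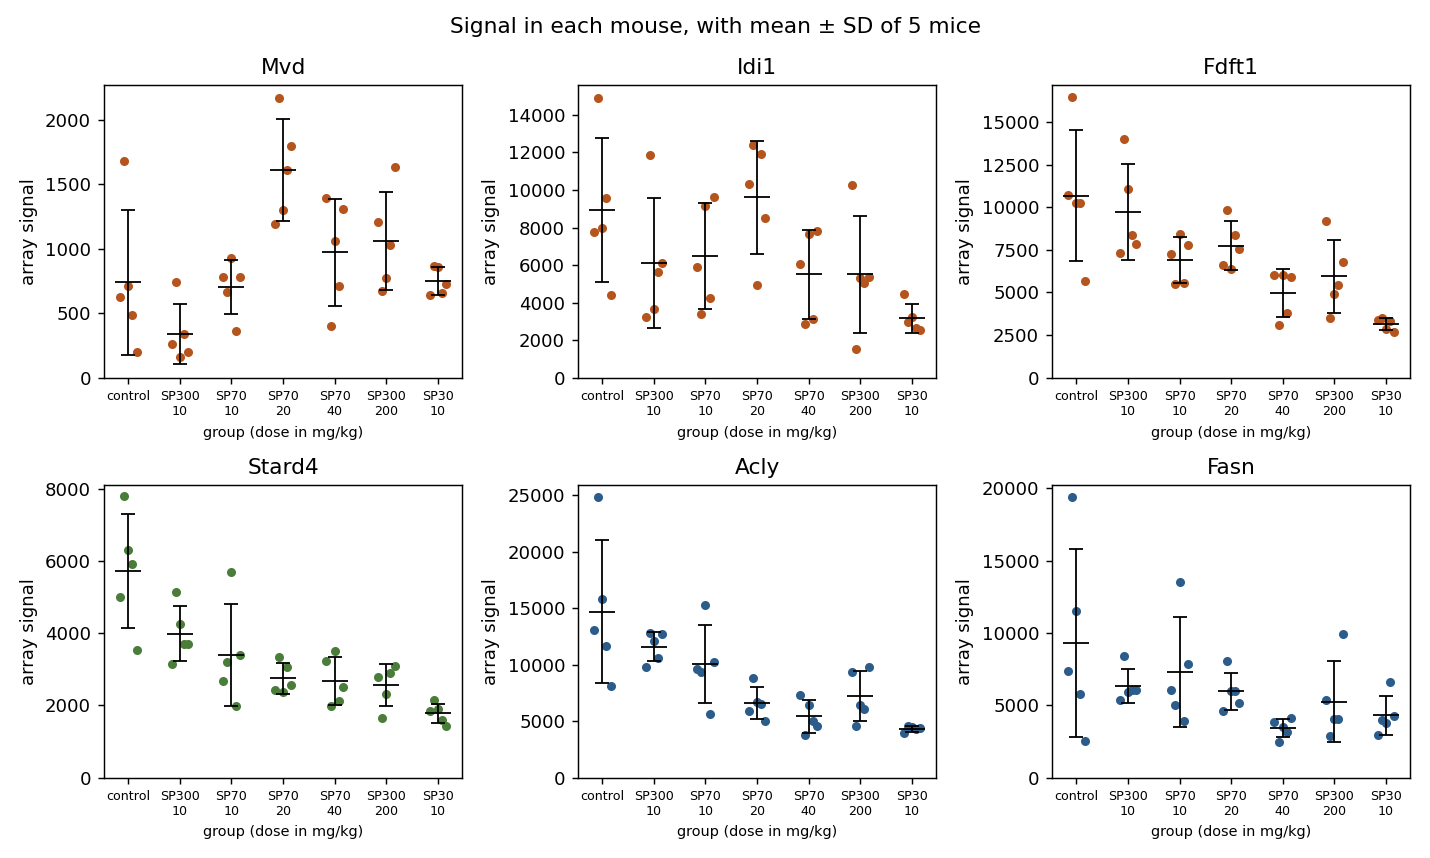
Array signal (linear scale) of 6 genes in each mouse, by group, with the mean and SD of 5 mice. Mvd is highest after SP70 at 20 mg/kg (1189 to 2167); Fdft1, Stard4 and Acly after SP30 lie below all control mice.

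The regulators were examined next. Stard4, a sterol carrier protein and a target of SREBP-2, and Scap, the escort of both SREBP proteins, were the 2 that fell in 5 of 6 treated groups. Stard4 signals were 5008, 7799.7, 6308, 5918 and 3544 in control mice and 3139, 5145, 4259.6, 3704 and 3691 after SP300 at 10 mg/kg. After SP70, the Stard4 signals were 2678, 3193, 5710.01, 1991 and 3397 at 10 mg/kg, 2429.7, 3332, 2367, 3067 and 2558 at 20 mg/kg and 3223, 1993, 3511, 2122 and 2510.4 at 40 mg/kg. For Stard4 they were 2793, 1663, 2329, 2909 and 3106 after SP300 at 200 mg/kg and 1832, 2138, 1887, 1598 and 1424 after SP30. After SP30, the high dose of SP300 and SP70 at 20 or 40 mg/kg, every treated mouse was below every control mouse. Stard4 fell 3.13-fold after SP30 (-1.65 ± 0.21, adjusted p = 5.33e-08). Its differences were -0.79, -1.02 and -1.08 after SP70 at 10, 20 and 40 mg/kg and -1.14 after SP300 at 200 mg/kg (adjusted p = 0.00652, 1.88e-04, 6.79e-05 and 6.97e-05). A dimmer probe set did not pass at 10 or 20 mg/kg of SP70 (log2 -0.57 and -0.50, adjusted p = 0.0695 and 0.0669). At 10 mg/kg of SP70, the call of Stard4 held whichever mouse was left out. The other 4 calls there did not: Scap was lost without control mouse 3 or 4 or SP70 mouse 1 or 2 (adjusted p of up to 0.068), and Hsd17b7 without control mouse 1, 2 or 3 or SP70 mouse 1, 2 or 4 (0.162). Ebp was lost without control mouse 2 or 3 or SP70 mouse 1, 3 or 4 (0.122), and Sc5d without control mouse 1, 2, 3 or 4 or SP70 mouse 1, 2 or 4 (0.210). With only the 2 groups fitted, Hsd17b7 (0.071) and Ebp (0.106) did not pass either, and Hsd17b7 was also lost without a variance trend.

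Scap signals were 6027, 6702, 7775, 8097 and 6965 in control mice and 8182, 7844, 7766, 6847 and 6497 after SP300 at 10 mg/kg. After SP70, the Scap signals were 4998, 5019, 6824, 5378 and 5459 at 10 mg/kg, 4486, 4236, 4368, 3437 and 3643 at 20 mg/kg and 3778, 3454, 4279.96, 4096 and 3025 at 40 mg/kg. For Scap they were 5225, 3658, 4472, 3555 and 3590.4 after SP300 at 200 mg/kg and 3789, 3123, 4045, 3339 and 3611 after SP30. The control mice and those after SP70 at 20 or 40 mg/kg, SP300 at 200 mg/kg or SP30 did not overlap. Scap fell after all 4 (-0.82, -0.93, -0.80 and -0.99, each ± 0.11, with adjusted p values of 3.64e-07, 2.02e-08, 9.00e-07 and 5.08e-09). At 10 mg/kg of SP70 it fell by less (-0.36 ± 0.11, adjusted p = 0.02), with mouse 3 inside the control range.

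Srebf1 encodes SREBP-1a and SREBP-1c, which 1 probe set need not separate. Srebf1 signals were 12359.98, 19162, 16811, 11505 and 4699 in control mice and 15982, 16009, 18085, 8392 and 9510.4 after SP300 at 10 mg/kg. After SP70, the Srebf1 signals were 8168, 10898, 16024, 8242 and 6302 at 10 mg/kg, 4911, 8417, 10261, 5616 and 5501 at 20 mg/kg and 11536, 5756, 6225, 7912 and 4009.6 at 40 mg/kg. For Srebf1 they were 5736, 10144, 4842, 6278 and 16816 after SP300 at 200 mg/kg and 3709, 8207, 5375, 8111 and 5462 after SP30. The lowest control mouse, mouse 5, was below most treated mice, so that every treated group overlapped the control group. Srebf1 fell after SP30 (-0.98 ± 0.34, adjusted p = 0.016), a call lost without control mouse 2 or 3 or SP30 mouse 1, with an adjusted p of up to 0.062. It did not pass after SP70 at 20 mg/kg (-0.81 ± 0.34, adjusted p = 0.0555) or 40 mg/kg (-0.81 ± 0.34, adjusted p = 0.0508). Srebf2, which encodes SREBP-2, had signals of 849, 1015, 719.6, 683 and 566 in control mice and 925, 1027, 1282, 1101 and 1226 after SP70 at 20 mg/kg, where 4 of 5 mice were above all control mice. It rose there (0.55 ± 0.17, adjusted p = 0.0107), but a dimmer Srebf2 probe set differed by 0.00 (adjusted p = 0.996), and with the probe sets averaged the adjusted p was 0.095.

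Insig1, which retains the SREBP proteins and is itself a target of SREBP, varied widely among control mice. Insig1 signals were 16116, 27738, 18449.97, 9964 and 7668 in control mice and 10505, 16498, 14463, 12669 and 11234 after SP300 at 10 mg/kg. After SP70, the Insig1 signals were 12438, 10419, 14264, 6764 and 14248 at 10 mg/kg, 14587, 22993, 16068, 15363 and 15643 at 20 mg/kg and 15825, 8549.9, 13484, 10861 and 13868 at 40 mg/kg. For Insig1 they were 19112, 7318, 9419, 14593 and 21319.9 after SP300 at 200 mg/kg and 7645, 9586, 9059, 8239.7 and 8091 after SP30. The SP30 mice lay at the lower end of the control range, and mouse 1 just below it. Insig1 fell after SP30 (-0.77 ± 0.26, adjusted p = 0.015), and without control mouse 2 the adjusted p was 0.087. Insig2, a relative of Insig1, passed in no comparison with control, with differences from 0.09 to 0.46. Of the 6 regulators, 4 fell after SP30, 2 fell after each of the 3 doses of SP70 and after SP300 at 200 mg/kg, and 1 rose, at 20 mg/kg of SP70. Of all genes tested, 31.3% were lower after SP30 and 18.0% after SP300 at 200 mg/kg. After SP70 at 10, 20 and 40 mg/kg 5.70%, 20.9% and 28.8% were lower, and 18.8% were higher at 20 mg/kg.

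Among the fatty acid genes, Acly splits citrate to give the acetyl-CoA that both branches use. Acly signals were 13079, 24874, 15769, 11645 and 8112 in control mice and 9827, 12774, 12055, 10623 and 12702 after SP300 at 10 mg/kg. After SP70, the Acly signals were 9628, 9349, 15264, 5657 and 10265 at 10 mg/kg, 5922, 8841, 6678, 6483 and 4983 at 20 mg/kg and 7353, 3743, 6466, 4966 and 4576 at 40 mg/kg. For Acly they were 9335, 4601, 6460.1, 6094 and 9761 after SP300 at 200 mg/kg and 3915, 4531, 4472, 4292 and 4376 after SP30. All mice given SP30 or SP70 at 40 mg/kg were below all control mice, and at 20 mg/kg 4 of 5 were. The SP30 mice lay within a narrow range, from 3915 to 4531. Acly fell 3.17-fold after SP30 (-1.67 ± 0.23, adjusted p = 1.93e-07). Its differences were -1.08 ± 0.23 and -1.38 ± 0.23 after SP70 at 20 and 40 mg/kg (adjusted p = 2.33e-04 and 6.42e-06), and -0.97 ± 0.23 after SP300 at 200 mg/kg (adjusted p = 0.00118). The next Acly probe set was lower by a like amount in each, at -1.79 after SP30.

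Acaca and Acacb are the acetyl-CoA carboxylases, of which the first supplies malonyl-CoA for synthesis and the second malonyl-CoA that restrains fatty acid oxidation. Acaca fell after SP70 at 20 and 40 mg/kg (-0.50 and -0.73), SP300 at 200 mg/kg (-0.48) and SP30 (-0.89), with adjusted p values of 0.0256, 0.00127, 0.044 and 1.19e-04. Acacb signals were 1259, 2439, 1908, 873 and 1370.1 in control mice and 618, 1498, 1349, 1787 and 1311 after SP300 at 10 mg/kg. After SP70, the Acacb signals were 1141, 982, 1635, 319.7 and 2369.5 at 10 mg/kg, 941, 1126, 949.6, 623 and 480.3 at 20 mg/kg and 882, 649.9, 1507, 479 and 604 at 40 mg/kg. For Acacb they were 1062, 537, 1337, 1042 and 756 after SP300 at 200 mg/kg and 663, 611, 890.4, 539 and 776 after SP30. The groups overlapped throughout, and after SP30 4 of 5 mice were below all control mice. Acacb fell after SP30 (-1.09 ± 0.36, adjusted p = 0.0123) and after SP70 at 20 and 40 mg/kg (-0.90 and -0.95, adjusted p = 0.0475 and 0.0321). At 20 mg/kg the calls of Acaca (SP70 mouse 1 or 5, control mouse 2 or 3) and Acacb (SP70 mouse 1, 4 or 5, control mouse 1, 2, 3 or 5) were lost without 1 of the mice named, with adjusted p values of up to 0.091 and 0.143, and that of Acacb also without a filter (0.066). The call of Acacb there was lost as well with the probe sets of each gene averaged and without a variance trend. At 40 mg/kg that of Acacb was lost without SP70 mouse 2, 4 or 5 or control mouse 2 or 3, with an adjusted p of up to 0.104.

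Fasn, fatty acid synthase, makes palmitate. Fasn signals were 7402, 19407, 11532, 5753 and 2559 in control mice and 5343, 8389, 5892, 6061 and 6056 after SP300 at 10 mg/kg. After SP70, the Fasn signals were 6034, 5016, 13556, 3879.7 and 7875 at 10 mg/kg, 4616, 8037, 5996, 6004 and 5124 at 20 mg/kg and 3866, 2457, 3519, 3178 and 4109.9 at 40 mg/kg. For Fasn they were 5382, 2842, 4017, 4036 and 9958 after SP300 at 200 mg/kg and 2954, 3974, 3764, 6585 and 4228 after SP30. Control mice spanned from 2559 to 19407, so that all groups overlapped them. Fasn fell after SP70 at 40 mg/kg (-1.16 ± 0.35, adjusted p = 0.00628) and after SP30 (-0.86 ± 0.35, adjusted p = 0.0379), and was not called at 20 mg/kg (-0.37 ± 0.35, adjusted p = 0.434). The call after SP30 was lost when control mouse 1, 2 or 3 or SP30 mouse 1, 2, 3 or 5 was left out, with an adjusted p of up to 0.200, and 0.099 with only the 2 groups fitted. It was lost as well without a filter, after quantile normalization and without a variance trend. Me1, malic enzyme, a source of NADPH, fell after SP70 at 40 mg/kg (-0.85), SP300 at 200 mg/kg (-0.79) and SP30 (-0.80), with adjusted p values of 0.00272, 0.00849 and 0.00424. A dimmer Me1 probe set did not pass in any of the 3 (-0.52, -0.68 and -0.23, adjusted p = 0.127, 0.0551 and 0.529). With the probe sets averaged the call after SP30 was lost (-0.51, adjusted p = 0.075).

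Elovl5, Fads1 and Fads2 lengthen and desaturate polyunsaturated fatty acids. Elovl5 signals were 41621, 46391, 37563, 33587 and 35798 in control mice and 25172, 41155, 32479.6, 40153 and 36121 after SP300 at 10 mg/kg. After SP70, the Elovl5 signals were 32969, 25913, 33037, 27320.2 and 43126 at 10 mg/kg, 25997, 26583, 28825, 24806 and 22245 at 20 mg/kg and 24631, 20553, 24694, 21196 and 23665 at 40 mg/kg. For Elovl5 they were 29522, 23115, 34712, 30129 and 29017 after SP300 at 200 mg/kg and 23354, 15737, 20312, 13516 and 21035 after SP30. After SP30 and SP70 at 20 and 40 mg/kg all mice were below all control mice. Elovl5 fell 2.10-fold after SP30 (-1.07 ± 0.14, adjusted p = 5.67e-08), and by less after SP70 at 20 mg/kg (-0.60) and 40 mg/kg (-0.76) and SP300 at 200 mg/kg (-0.41), with adjusted p values of 6.40e-04, 2.49e-05 and 0.0204. The last did not pass without control mouse 2 or SP300 mouse 2, with adjusted p values of 0.068 and 0.083, or after quantile normalization (0.051).

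Fads2 signals were 16601, 16367, 14909, 14714 and 11309.8 in control mice and 11329.9, 15035, 14947, 14802 and 12236 after SP300 at 10 mg/kg. After SP70, the Fads2 signals were 11914, 10301, 13773, 10469.9 and 15689 at 10 mg/kg, 8565, 9705, 10030.05, 8456 and 7691 at 20 mg/kg and 8838, 7676, 10075, 9170.4 and 7761 at 40 mg/kg. For Fads2 they were 10339.9, 6211, 11223, 9267 and 9339 after SP300 at 200 mg/kg and 6017, 7965, 7229, 7799 and 8185 after SP30. The control mice and those after SP70 at 20 or 40 mg/kg, SP300 at 200 mg/kg or SP30 did not overlap. Fads2 fell after all 4 (-0.73, -0.76, -0.69 and -0.98, with adjusted p values of 3.35e-05, 1.39e-05, 1.19e-04 and 1.29e-07). Fads1 fell after the same 4 exposures and likewise without overlap (-0.43, -0.75, -0.59 and -0.94, with adjusted p values of 0.00158, 7.47e-07, 7.06e-05 and 8.30e-09). A second Fads1 probe set, with a mean signal of only 204, did not pass in any of them, and the mean of all Fads1 probe sets differed by 0.0058 at 20 mg/kg of SP70 and by -0.16 after SP300 at 200 mg/kg (adjusted p = 0.980 and 0.360).

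Gpam starts the esterification of fatty acids to glycerol. Gpam signals were 19372, 35756, 27473, 19591 and 16072 in control mice and 16466, 27646, 29679, 20592 and 21405 after SP300 at 10 mg/kg. After SP70, the Gpam signals were 18719, 19382, 27119.9, 12741 and 19278 at 10 mg/kg, 13603, 20298, 12993, 12585 and 14068 at 20 mg/kg and 19689, 13237, 20968, 13697 and 15962 at 40 mg/kg. For Gpam they were 18241, 11664, 15947, 15001 and 23031 after SP300 at 200 mg/kg and 10412, 13542, 12256, 10499.8 and 9652 after SP30. All SP30 mice were below all control mice, and at 20 mg/kg of SP70 4 of 5 were. Gpam fell after SP30 (-1.02 ± 0.20, adjusted p = 5.51e-05) and SP70 at 20 mg/kg (-0.65 ± 0.20, adjusted p = 0.00843), and did not pass at 40 mg/kg (-0.46 ± 0.20, adjusted p = 0.0549). Elovl6, which lengthens palmitate, fell after SP70 at 40 mg/kg (-0.93 ± 0.28, adjusted p = 0.00724) and SP300 at 200 mg/kg (-0.88 ± 0.28, adjusted p = 0.0169), and did not pass after SP30 (-0.46 ± 0.28, adjusted p = 0.185). Scd1, the stearoyl-CoA desaturase, and Thrsp, which promotes lipogenesis, passed in no comparison with control. Scd1 signals were above 48037, the brightest 0.5% of all values, on 31 of 35 arrays, and its second probe set, with a mean signal of 6262, rose after SP70 at 40 mg/kg (log2 1.35, adjusted p = 0.00811).

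Counted over the 12, fatty acid genes fell in 9 cases after SP30 (median -0.91), 9 after SP70 at 40 mg/kg (-0.76), 7 at 20 mg/kg (-0.53) and 7 after SP300 at 200 mg/kg (-0.63), and 0 rose in any group. Of all genes tested, 31.3%, 28.8%, 20.9% and 18.0% were lower in these groups, in that order. At 10 mg/kg of SP70 limma called 0 of the 12 (median -0.26, and 3 with an unadjusted p below 0.05), against 18.2% of all genes. At 10 mg/kg of SP300 it also called 0 (median -0.16, and 0 with an unadjusted p below 0.05), against 1.17%. After SP300 at 200 mg/kg the calls of Acaca and Elovl6 rested on single mice as well. Acaca did not pass without control mouse 1, 2 or 3 or SP300 mouse 2, 3 or 4, and Elovl6 without control mouse 2 or 3 or SP300 mouse 2, with adjusted p values of up to 0.140 and 0.094. With only the 2 groups fitted neither passed (0.056 and 0.073), and with the arrays centred Acaca did not (0.095). Nor did Acaca pass without a filter, after quantile normalization or without a variance trend.

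The sterol enzymes varied more between mice of a group than most genes, and they did so together. Their median SD within groups was 0.54 on the log2 scale, against 0.37 for the regulators, 0.37 for the fatty acid genes and 0.24 over all genes. Among control mice, mouse 2 had the highest signal for 17 of 17 sterol enzymes and mouse 5 the lowest for 17 of 17. Over all genes tested mouse 2 was the highest for 21.9% and mouse 5 the lowest for 21.7%. Of the fatty acid genes, mouse 2 was highest for 9 of 12 and mouse 5 lowest for 7 of 12. Other groups held such mice too: SP300 200 mg/kg mouse 2 was lowest for 15 of 17 sterol enzymes and 11 of 12 fatty acid genes, and SP70 20 mg/kg mouse 2 was highest for 15 of 17 and 9 of 12. SP70 40 mg/kg mouse 2 was lowest for 12 of 17 and 9 of 12. In SP300 10 mg/kg, mouse 2 was highest for 13 of 17 and 7 of 12, and mouse 1 lowest for 11 of 17 and 11 of 12. After SP30 no mouse was highest for more than 8 of the 17. Fdps, for example, ran from 6742 to 20286 in control mice and from 6131 to 6893 after SP30. With control mice 2 and 5 left out together, the sterol median was -0.98 after SP30 and 0.12 after SP70 at 20 mg/kg, and 24 and 14 of the 35 genes were called. It was -0.40 after SP70 at 10 mg/kg, -0.41 at 40 mg/kg, and -0.38 after each dose of SP300. After SP70 at 10 mg/kg 3 genes were called in place of 5, and the sterol enzymes called there went from 3 to 0. At 40 mg/kg of SP70 16 were called, after SP300 at 200 mg/kg 12 in place of 14, and at its low dose 0.

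**Figure D4:**
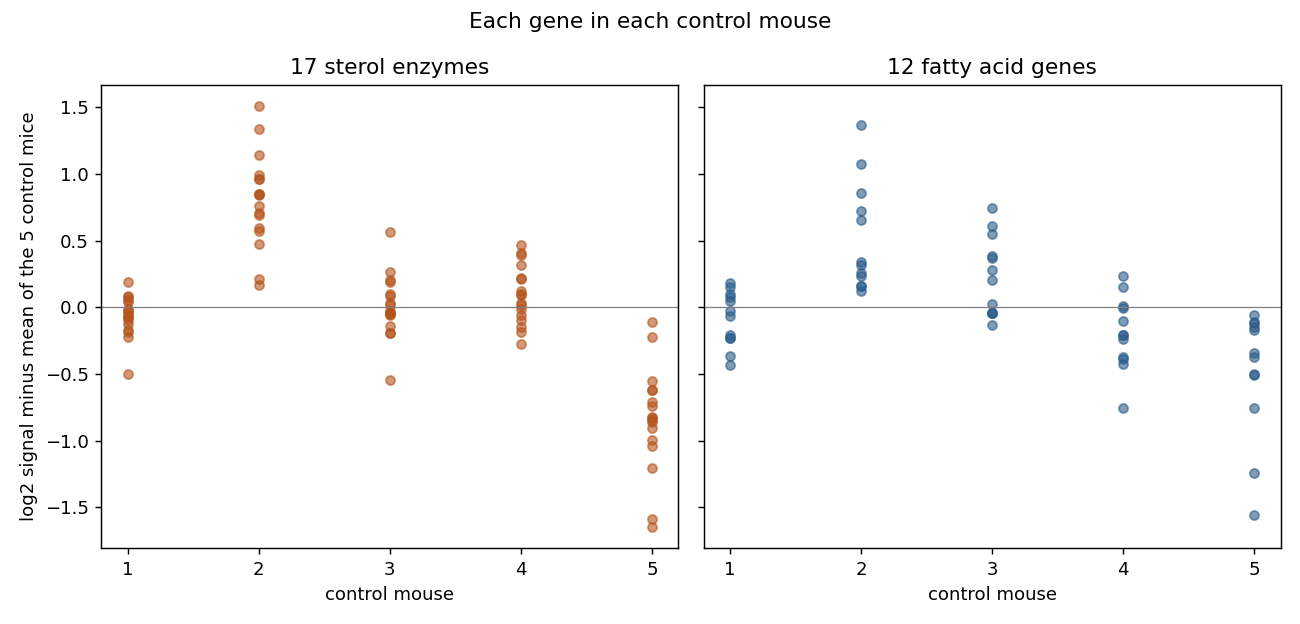
Log2 signal of each gene minus its mean over the 5 control mice, by control mouse, for the 17 sterol enzymes (left) and 12 fatty acid genes (right). Mouse 2 lies above 0 and mouse 5 below 0 for all 17 sterol enzymes.

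The response of SP70 to dose was compared between its groups. From 10 to 40 mg/kg, 10 of the 35 genes were lower and 0 higher, while of all genes 30.6% were called, 25.3% lower and 5.22% higher. The count of lower members was thus near the share of all genes. The 10 genes were 7 of 12 fatty acid genes (Acly, Acaca, Fasn, Elovl5, Elovl6, Fads1 and Fads2), 2 sterol enzymes (Ebp and Sc5d) and Scap. Elovl6 (-1.12 ± 0.28, adjusted p = 0.00249) and Fasn (-0.97 ± 0.35, adjusted p = 0.0316) differed most. After quantile normalization 3 members were lower, and the share of all calls that were higher was 45.7% in place of 17.1%. Over all genes the median of this comparison was -0.13, and 0.00 after that normalization.

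Steps between neighbouring doses were added after the group values had been seen. From 10 to 20 mg/kg, 3 sterol enzymes were higher, while of all genes 17.0% were called and 4.99% were higher. They were Mvd (1.21 ± 0.38, adjusted p = 0.0241), Sqle (1.51 ± 0.49, adjusted p = 0.0293) and Lss (1.06 ± 0.26, adjusted p = 0.00438). Scap (-0.45) and Fads2 (-0.47) were lower, with adjusted p values of 0.00456 and 0.0116, and 12.0% of all genes were lower. The count of 5 was 3 without SP70 20 mg/kg mouse 2 or 5. From 20 to 40 mg/kg only Lss passed (-0.88 ± 0.26, adjusted p = 0.0241), against 11.5% of all genes (8.69% lower and 2.79% higher), and 10 members had an unadjusted p below 0.05, all lower. That count of 1 was 0 without SP70 20 mg/kg mouse 2 or 4 or SP70 40 mg/kg mouse 2 or 4, 2 without SP70 40 mg/kg mouse 1 and 3 without its mouse 5. The share of higher calls among all genes was 29.4% from 10 to 20 mg/kg and 24.3% from 20 to 40 mg/kg, and 49.9% and 47.4% after quantile normalization (40.8% for the second with the arrays centred).

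At the common dose of 10 mg/kg, SP30 gave the most calls against the other particles, among the members and among all genes alike. Against SP70 it was lower for 13 members and higher for 0, while of all genes 29.0% were called, 23.6% lower and 5.41% higher. These were 6 fatty acid genes, 5 sterol enzymes, Scap and Stard4. Acly differed most (-1.15 ± 0.23, adjusted p = 2.37e-04), followed by Fdft1 (-1.11 ± 0.23, adjusted p = 3.62e-04). Against SP300 at that dose, SP30 was lower for 16 members and higher for 1, while of all genes 51.8% were called, 35.6% lower and 16.3% higher. The count of members called there was thus near the share of all genes. Fdft1 was lower (-1.58 ± 0.23, adjusted p = 4.99e-07), as was Acly (-1.42 ± 0.23, adjusted p = 3.09e-06), and Mvd was higher (1.30 ± 0.38, adjusted p = 0.0044). SP70 against SP300 gave 3 calls, Mvd higher (1.16 ± 0.38, adjusted p = 0.0274) and Ebp (-0.24) and Scap (-0.43) lower, while of all genes 20.6% were called, 10.5% higher and 10.2% lower. The Mvd comparisons include the SP300 mouse below the filter. The medians over all genes were -0.13 and -0.18 for SP30 against SP70 and SP300, and 0.00 and -0.05 after quantile normalization, which moved the share of higher calls from 18.6% to 44.1% and from 31.4% to 44.9%. With the arrays centred, the first was 29.2%.

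At the toxic doses the 3 comparisons gave 0, 8 and 1 calls. Between SP30 and SP70 at 40 mg/kg limma called 0 members, against 5.71% of all genes (2.03% lower and 3.68% higher), and 8 had an unadjusted p below 0.05, all lower after SP30. Differences of the 35 genes ran from -1.02 to 0.47, so that a missed threshold does not show equal levels. Hmgcs1 (-0.86 ± 0.35, adjusted p = 0.155) and Fdft1 (-0.61 ± 0.23, adjusted p = 0.12) were among those that did not pass. SP30 against SP300 at 200 mg/kg gave 8 lower members and 0 higher, while of all genes 29.2% were called, 17.5% lower and 11.7% higher. They were Hmgcs1, Fdft1, Hsd17b7, Ebp, Acly, Elovl5, Fads1 and Gpam, of which Hmgcs1 (-0.95 ± 0.35, adjusted p = 0.0382) and Hsd17b7 (-0.90 ± 0.22, adjusted p = 0.00218) differed most. Without SP300 mouse 1, 2 or 5 the count was 4, 15 or 5. In SP70 at 40 mg/kg set against the high dose of SP300, Ebp was lower (-0.21 ± 0.06, adjusted p = 0.0121), the 1 call, while of all genes 15.5% were called, 10.4% lower and 5.04% higher. That count was 0 without SP300 mouse 1 and 2 without mouse 2. The share of higher calls among all genes was 64.5% for SP30 against SP70 and 32.6% for SP70 against SP300, and 81.9% and 15.8% with the arrays centred (46.0% for the second after quantile normalization). Between the doses of SP300, 200 mg/kg was lower than 10 mg/kg for 8 members and higher for Mvd (1.74 ± 0.38, adjusted p = 5.55e-04), while of all genes 31.8% were called, 22.4% lower and 9.41% higher. The count of lower members was thus near the share of all genes. The 8 were Fdft1, Ebp, Scap, Stard4, Acly, Acaca, Fads1 and Fads2, and the share of higher calls moved from 29.6% to 48.6% after quantile normalization and to 46.4% with the arrays centred.

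The comparison of SP30 with SP70 at 20 mg/kg, also added afterwards, set the group with the lowest sterol signals against that with the highest. SP30 was lower for 18 members and higher for 0, while of all genes 17.8% were called, 12.6% lower and 5.24% higher. Of these, 13 were among the 17 sterol enzymes, with a list median of -1.07, 3 were regulators (Srebf2, Insig1 and Stard4), and 2 were fatty acid genes (Elovl5 and Fads1), with a list median of -0.31. Examples are Sqle (-1.57 ± 0.49, adjusted p = 0.0219), Hmgcs1 (-1.56 ± 0.35, adjusted p = 0.00168) and Lss (-1.38 ± 0.26, adjusted p = 2.82e-04). Since the 2 groups were chosen for their sterol signals, these values describe the groups and support nothing further. With arrays centred on their medians 11 members were called, and the share of higher calls among all genes was 56.8% in place of 29.4% (44.7% after quantile normalization).

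Genes around the pathway were counted from 5 lists, beside the shares of all genes tested that rose and fell: 18.1% and 31.3% after SP30, and 15.6% and 28.8% after SP70 at 40 mg/kg. Of 9 genes of SREBP processing and sterol-regulated degradation, 2 rose and 4 fell after SP70 at 40 mg/kg, and 3 rose and 4 fell after SP30. The lists' shares were not tested against those of all genes. Erlin1, part of a complex that guides sterol-regulated degradation, fell by 0.97 after SP70 at 20 mg/kg (adjusted p = 1.59e-06). Of 10 other isoprenoid and sterol genes, 2 rose and 6 fell after SP30. Osbp, an oxysterol-binding protein, rose (0.92, adjusted p = 4.48e-11), and Cyb5b, an electron donor, fell (-1.09, adjusted p = 3.45e-11). Of 9 LXR targets and sterol efflux genes, 1 rose and 7 fell after SP30. The 1 was Abca1, the cholesterol exporter (1.36, adjusted p = 1.97e-12). Lpcat3, a phospholipid acyltransferase, fell (-1.54, adjusted p = 5.12e-11).

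Of 15 other lipogenic genes, 2 rose and 9 fell after SP30 (all genes: 18.1% and 31.3%), and 1 rose and 9 fell after SP70 at 40 mg/kg (15.6% and 28.8%). Dgat2, which makes triglyceride, rose after SP30 (1.16, adjusted p = 3.51e-14). Mlxipl, which encodes the carbohydrate-responsive factor ChREBP, fell after SP70 at 40 mg/kg (-1.23, adjusted p = 6.53e-10). Acss2, which makes acetyl-CoA from acetate, fell after SP30 (-1.63, adjusted p = 1.79e-06). Of 9 genes of insulin input to SREBP-1, 3 rose and 4 fell after SP70 at 40 mg/kg. Irs1, an insulin receptor substrate, fell by 2.67 there (adjusted p = 9.23e-16), and at 10 mg/kg as well (-1.29, adjusted p = 9.60e-08). Trib3, which binds and restrains the insulin-activated kinase Akt, rose in all 6 treated groups, by 1.29 after SP300 at 10 mg/kg (adjusted p = 4.46e-04). Igfbp1, which insulin lowers in liver, rose after SP70 at 40 mg/kg (3.75, adjusted p = 4.43e-09), and G6pc, the glucose-6-phosphatase, which insulin also lowers, fell (-2.50, adjusted p = 3.92e-10).

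In the remaining groups the 5 lists are given in the order of SREBP processing, other sterol genes, LXR targets, other lipogenic genes and insulin input. After SP70 at 20 mg/kg, 3, 4, 1, 3 and 3 of their genes rose and 2, 4, 4, 6 and 2 fell, where 18.8% of all genes rose and 20.9% fell. After SP300 at 200 mg/kg, 2, 3, 1, 2 and 2 rose and 2, 4, 4, 9 and 2 fell (all genes: 12.6% and 18.0%). After SP70 at 10 mg/kg, 2, 1, 1, 1 and 2 rose and 1, 1, 2, 2 and 1 fell (12.5% and 5.70%). After SP300 at 10 mg/kg limma called 0, 0, 0, 1 and 1, both higher (1.17% of all genes were called, 0.924% higher), and 0, 3, 3, 2 and 3 had an unadjusted p below 0.05. The 1 beside Trib3 was Lpin1, a phosphatidate phosphatase (1.54, adjusted p = 0.0099), named after its value was seen. After SP70 at 40 mg/kg, 3 other sterol genes rose and 5 fell, and 1 LXR target rose and 6 fell. After SP30, 3 genes of insulin input rose and 4 fell.

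Markers of the liver's cell types were read on the same arrays. Of all genes tested, 18.1% rose and 31.3% fell after SP30. After SP70 at 10, 20 and 40 mg/kg 12.5%, 18.8% and 15.6% rose, and 5.70%, 20.9% and 28.8% fell. After SP300, 0.924% rose and 0.245% fell at 10 mg/kg, and 12.6% and 18.0% at 200 mg/kg. The summed signal of 6 hepatocyte markers had medians from 433131 to 523487 over the 7 groups and 491407 in control mice. Sums of this size need signals above 48037, the brightest 0.5% of all values. Whether signals that bright still follow the RNA level was not tested. Of the 6 hepatocyte markers, 3 fell after SP300 at 200 mg/kg (Alb by 0.23, Apoa1 by 0.19 and Apoc3 by 0.16), and limma called 0 in the other groups, where 1 marker, after SP70 at 10 mg/kg, had an unadjusted p below 0.05. The summed signal of 8 Kupffer cell markers had a median of 28027 in control mice (21077 to 30388), 9064 after SP30 (6163 to 13722), 2850.2 after SP70 at 20 mg/kg (2373 to 3818), 1725 after SP70 at 40 mg/kg (1438 to 2291) and 1507 after SP300 at 200 mg/kg (1473 to 1789), with 6, 7, 7 and 7 of the 8 lower. It was 10318 after SP70 at 10 mg/kg (8216 to 13405), with 6 lower, and 29452 after SP300 at 10 mg/kg (23145 to 33426), where limma called 0 and 0 had an unadjusted p below 0.05. That of 5 neutrophil markers was 1529 in control mice (866 to 2452), 53908 after SP30 (46532 to 63669), 24812 after SP70 at 20 mg/kg (18716 to 28977) and 39551 after SP70 at 40 mg/kg (25107 to 61094), with 5, 4 and 5 of the 5 higher. It was 20950.3 after SP70 at 10 mg/kg (17912 to 25257) and 16224 after SP300 at 200 mg/kg (9820.1 to 24544), with 4 and 3 higher, and 1482 after SP300 at 10 mg/kg (850 to 1683), where limma called 0 and 0 had an unadjusted p below 0.05. That of 6 sinusoidal endothelial markers was 20486 in control mice (19590 to 28793) and 6192 after SP30 (5151 to 8442), with 6 of 6 lower. It was 16910.2 after SP70 at 10 mg/kg (13730.2 to 21289), 14474 at 20 mg/kg (13494 to 14692) and 6697 at 40 mg/kg (3491 to 7381), with 2, 4 and 6 lower. After SP300 at 200 mg/kg it was 13114 (7456 to 15427), with 5 lower, and at 10 mg/kg 30243 (27658 to 34026), where limma called 0 and 2 had an unadjusted p below 0.05. After SP30, 4 of 4 monocyte markers and 1 of 3 cholangiocyte markers rose, and 3 of 5 stellate cell markers fell. Their median sums follow in the order of control, SP70 at 10, 20 and 40 mg/kg, SP30, and SP300 at 10 and 200 mg/kg. Monocyte sums were 2535, 8334, 7286, 8099, 9543, 3080 and 5174. Cholangiocyte sums were 533, 715, 1521, 1039, 1330, 536 and 847. Of these markers only Sox9 passed in any comparison with control, while Epcam and Krt19 did not (smallest adjusted p = 0.145 and 0.334). Stellate cell sums were 25621, 26925, 27189, 23699, 21082, 31775 and 24532. No marker of these lists was at 0 on any array. Their part in the values of the 35 genes was not tested.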

How the data were processed

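Liver RNA of 35 mice was measured on Affymetrix arrays of 45101 probe sets. The values are intensities per probe set on a linear scale, as deposited by the authors, and MAS5 is named, without its version, in the submitters' processing notes. Those sources do not give a scaling target, no detection calls were used, and signals were not rescaled. Mean signals after trimming differed between arrays (887 to 1139), and scaling was therefore among the alternatives.

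Probe sets were named by the platform's annotation (34945 with 1 gene, 932 with several, 9160 unnamed here). A probe set was kept when its signal exceeded 165 (the median signal) on 5 or more arrays. A gene was represented by its probe set with the highest mean signal, and 64 control probe sets were left out. A pseudocount of 12.5, the 10th percentile, was added before log2. Every adjusted p is from limma 3.58.1 in R 4.3.3 (1 mean per group over all 35 arrays, contrasts, empirical Bayes with a variance trend, two-sided), adjusted by Benjamini-Hochberg over 12669 genes, at 0.05. The fit was also run on simulated data in which genes varied independently and few genes changed. In the data themselves many genes were called and the sterol enzymes varied together. That run therefore does not show how the fit performs here. Each array is 1 mouse, and each p-value sets a difference between group means against the spread between mice within groups. That spread was pooled over all 35 arrays and moderated by empirical Bayes. With 5 arrays per group, their number limits the precision.

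The members and lists were chosen with earlier results of these data known. Members given mouse by mouse follow a rule: the members past the threshold with the largest absolute log2 difference from control in any treated group, up to 6 sterol enzymes, 4 regulators and 6 fatty acid genes. Up to 4 genes of each other list, with the smallest adjusted p, were named. Other members are given by their differences and ranges, and Lss, Srebf2 and Ebp by more values, chosen after these were seen. The replicate numbers are not said to mark a litter, batch or day, so they were not used as a block. Over all genes tested, same-numbered mice did not deviate together (mean correlation -0.000553 over 105 pairs, from -0.103 to 0.112). This correlation was not taken over the members alone. Alternatives changed the pseudocount, filter, scaling, probe set, variance trend, block and samples in the fit, and left out each mouse in turn. Promoters were taken from RefSeq, build GRCm38.p6.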

Additional observations from a re-analysis of the deposited data

Results flagged for a closer look

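In 12 of 245 sets of 5 mice (35 genes in 7 groups), 1 mouse lay apart from the other 4 by Dixon's test; chance alone gives about 1 in 20 such sets. Of the sterol enzymes after SP30, Hmgcs1 was 14144 in mouse 1 (8794 to 9554 in the others) and Sqle was 2716 in mouse 1 (1004 to 1272). After SP300 at 10 mg/kg, Ebp was 28594 in mouse 3 (24916 to 25869). Dhcr7 was 6708 in mouse 2 after SP70 at 20 mg/kg (3044 to 3819) and 2847 in mouse 2 after SP70 at 40 mg/kg (4229 to 4946).

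Of the regulators, Scap was 6824 in mouse 3 after SP70 at 10 mg/kg (4998 to 5459), and Insig1 was 22993 in mouse 2 after SP70 at 20 mg/kg (14587 to 16068). In the latter mouse Fads1 was 16561 (13732 to 14469) and Gpam was 20298 (12585 to 14068) as well. Fasn was 8389 in mouse 2 after SP300 at 10 mg/kg (5343 to 6061). Scd1 was 52302 in mouse 2 after SP70 at 40 mg/kg (67129 to 72646) and 52375 in mouse 1 after SP30 (64778 to 70200). What set these mice apart was not tested.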

How the results depend on the processing

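Over 74 calls of single genes and 1554 values under alternatives, 1430 kept their call, 123 kept their direction but did not pass, and 1 reversed, Fads1 after SP70 at 20 mg/kg, at 0.0058 when all its probe sets were averaged; the cause was not tested beyond the values of its dimmer probe set. Counts of members called mostly stayed within 1.5 times. Against control, SP70 at 10 mg/kg gave 3 calls without a variance trend and 2 with only the 2 groups fitted (reported: 5), and SP300 at 10 mg/kg gave 1 with probe sets averaged (0). With only the 2 groups fitted, SP30 against SP70 at 40 mg/kg gave 2 (0), SP70 at 40 mg/kg against SP300 at 200 mg/kg 2 (1), SP70 at 20 against 10 mg/kg 9 (5), and SP70 at 40 against 20 mg/kg 6 (1). The last gave 2 with a pseudocount 4 times as large, 3 with signals above the filter on 30 arrays, 4 with probe sets averaged and 2 with the probe set of highest mean log2. Quantile normalization gave 3 for SP70 at 40 against 10 mg/kg (10) and 0 for SP70 at 40 mg/kg against SP300 at 200 mg/kg (1), and centring gave 2 for the latter and 11 for SP30 against SP70 at 20 mg/kg (18).

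Leaving out 1 mouse gave 1 to 8 calls for SP70 at 10 mg/kg, 0 to 1 for SP300 at 10 mg/kg and 9 to 21 for SP300 at 200 mg/kg against control. It gave 4 to 15 for SP30 and 0 to 2 for SP70 at 40 mg/kg against SP300 at 200 mg/kg, 3 to 5 for SP70 at 20 against 10 mg/kg and 0 to 3 for 40 against 20 mg/kg. With the replicate block, SP30 against control gave 25 calls and no count moved by over 1.5 times, but Sc5d after SP70 at 10 mg/kg did not pass (adjusted p = 0.055). Arrays hold no detection calls here, so signals near background cannot be set apart from it beyond the filter.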
